A study of Mus musculus with 28 samples.

Results

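Expression of MYC, of 8 nucleolar genes and of the chaperonin subunit gene Cct7 was followed across 28 libraries of cells sorted from mouse lungs. The 10 genes were Myc, Polr1b, Ncl, Nolc1, Npm1, Ddx21, Fbl, Nop56, Nop58 and Cct7, and all 10 were listed in every library, among 19375 genes listed in all 28. They were chosen by name with measured values of these libraries in view, and the values used were not recorded by contrast. Ddx21 ranked 1 of 8178 genes by p in AEC1 after papain with FK506 against papain, so the treatment differences in AEC1 are given below as a description, and no support is taken from them.

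All mice were wild-type C57BL/6 aged 8 weeks, and the labels name 4 sorted populations. They are AEC1 and AEC2 (alveolar epithelial cells of types 1 and 2), ILC2 (innate lymphoid cells of group 2) and basophils. The papain + FK506 mice received FK506, a calcineurin inhibitor, by intraperitoneal injection at 0.2 mg per day in courses of 3 days, with papain, an allergenic protease, given intranasally at 50 µg per day during the later course. The papain mice received papain, and the untreated mice received neither, as far as the labels say. AEC1 and AEC2 had 2 libraries per condition, ILC2 had 3 per condition, and basophils had 3 papain + FK506, 3 papain and 1 untreated library. The labels do not say whether replicates came from separate mice or from pools, so the tests measure only the spread between these libraries, which may be technical.

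MYC is a transcription factor that, with its partner MAX, raises the transcription of many genes of ribosome production. Ribosomes are assembled in the nucleolus, where RNA polymerase I makes the ribosomal RNA precursor and small nucleolar ribonucleoproteins guide its chemical modification before the subunits are put together. In epithelial and lymphoid cells the activity of these genes is commonly high when cells grow and divide. The chaperonin to which Cct7 belongs folds newly made proteins such as actin and tubulin.

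The promoters were read from RefSeq on the mouse build GRCm38.p6, from 250 bases before to 50 bases after each RefSeq gene start. All but Myc, Npm1 and Fbl had one, which left the promoters of 7 of the 10 genes. They were searched on both strands for the E-box that MYC and MAX bind (CACGTG), for a CG variant of it (CACGCG, read as CGCGTG on the other strand) and for the GC box (GGGCGG, read as CCGCCC on the other strand), and no match of one overlapped a match of another in the promoters printed. The E-box stood in 0 of the 7, against 7.15% of all 32851 promoters in the table and 9.98% of the 10093 promoters of genes with at least 10 CPM (the deposited unit, reads scaled to the library total) in 2 or more AEC libraries. The CG variant stood in 2 of the 7, Nolc1 and Ddx21, against 9.27% of all promoters and 17.2% of the 10093. The GC box stood in all 7, against 35.7% of all promoters and 63.9% of the 10093. A match describes these letters only. The promoters of the 3 genes on which the following results turn most are printed 5′ to 3′ on the gene's own strand, with GC boxes and the CG variant in capitals. The Ncl promoter lies at chr1:86359406-86359705 on the minus strand and holds 3 GC boxes. It lies wholly before the Ncl start in the GENCODE annotation, at 86359400, which differs from the RefSeq start. The Ddx21 promoter lies at chr10:62602249-62602548 on the minus strand and holds 1 GC box, followed by 1 copy of the CG variant that lies inside the annotated gene. The Cct7 promoter lies at chr6:85451255-85451554 on the plus strand and holds 2 GC boxes.
Ncl: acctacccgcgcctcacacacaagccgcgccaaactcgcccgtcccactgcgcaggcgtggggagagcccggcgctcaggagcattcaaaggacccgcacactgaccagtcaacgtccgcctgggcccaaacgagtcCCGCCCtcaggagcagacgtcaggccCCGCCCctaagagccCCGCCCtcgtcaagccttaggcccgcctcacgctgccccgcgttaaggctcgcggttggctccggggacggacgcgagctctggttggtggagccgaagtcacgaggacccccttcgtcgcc
Ddx21: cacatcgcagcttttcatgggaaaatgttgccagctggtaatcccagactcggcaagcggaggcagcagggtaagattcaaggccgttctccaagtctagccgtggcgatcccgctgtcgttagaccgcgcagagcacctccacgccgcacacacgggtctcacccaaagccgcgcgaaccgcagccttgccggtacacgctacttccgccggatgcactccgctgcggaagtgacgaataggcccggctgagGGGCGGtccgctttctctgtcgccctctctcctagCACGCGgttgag
Cct7: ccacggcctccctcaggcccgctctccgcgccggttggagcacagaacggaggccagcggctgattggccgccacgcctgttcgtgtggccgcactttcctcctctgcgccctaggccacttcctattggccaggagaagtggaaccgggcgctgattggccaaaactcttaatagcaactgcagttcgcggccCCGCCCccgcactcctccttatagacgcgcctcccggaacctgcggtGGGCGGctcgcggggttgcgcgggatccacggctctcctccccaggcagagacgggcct

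Some libraries stood apart or went against their labels. AEC2 untreated replicate 2 and AEC2 papain replicate 2 shared reads: their log2 values correlated at 0.994, against 0.62 to 0.747 for the other pairs within AEC1 or AEC2, and 45.0% of 6534 genes had the same read number in both, against 0.318% to 0.968% in 24 other pairs. Which condition those reads belong to is not known, so AEC2 results are given with and without both. The AEC1 libraries held 6225 to 15910 CPM of 12 fibroblast and smooth muscle markers and 1675 to 5630 CPM of 6 mesothelial markers, against 827.3 to 1150 CPM of 12 AEC1 markers. Ager, a defining AEC1 marker, was at 37.1 to 114.4 CPM in AEC1, below the 1384.0 to 3505.7 CPM in AEC2. The basophil libraries had Mcpt8 and Fcer1a at 0 throughout and 2785 to 20740 CPM of macrophage, monocyte and dendritic markers. Among the ILC2 libraries, untreated replicate 3 held 38190 CPM of 8 airway markers, against 0 to 260 CPM in the other 8, and the 3 replicate 3 libraries held 5014 to 6834 CPM of 11 AEC2 markers, against 8 to 656 CPM in the other 6. ILC2 papain + FK506 replicate 3 had the ILC2 marker Gata3 at 0 and held 15020 CPM of macrophage, monocyte and dendritic markers. Its 14 ILC2 markers came to 813 CPM, where each remaining library with this label had 1858 CPM or more. The population names are therefore used as labels only. The recovered read totals were 847750 to 975400 in the 6 AEC1 libraries and 1206900 to 1336100 in 5 of the 6 AEC2 libraries, and read totals of the others are unknown.

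**Figure D1:**
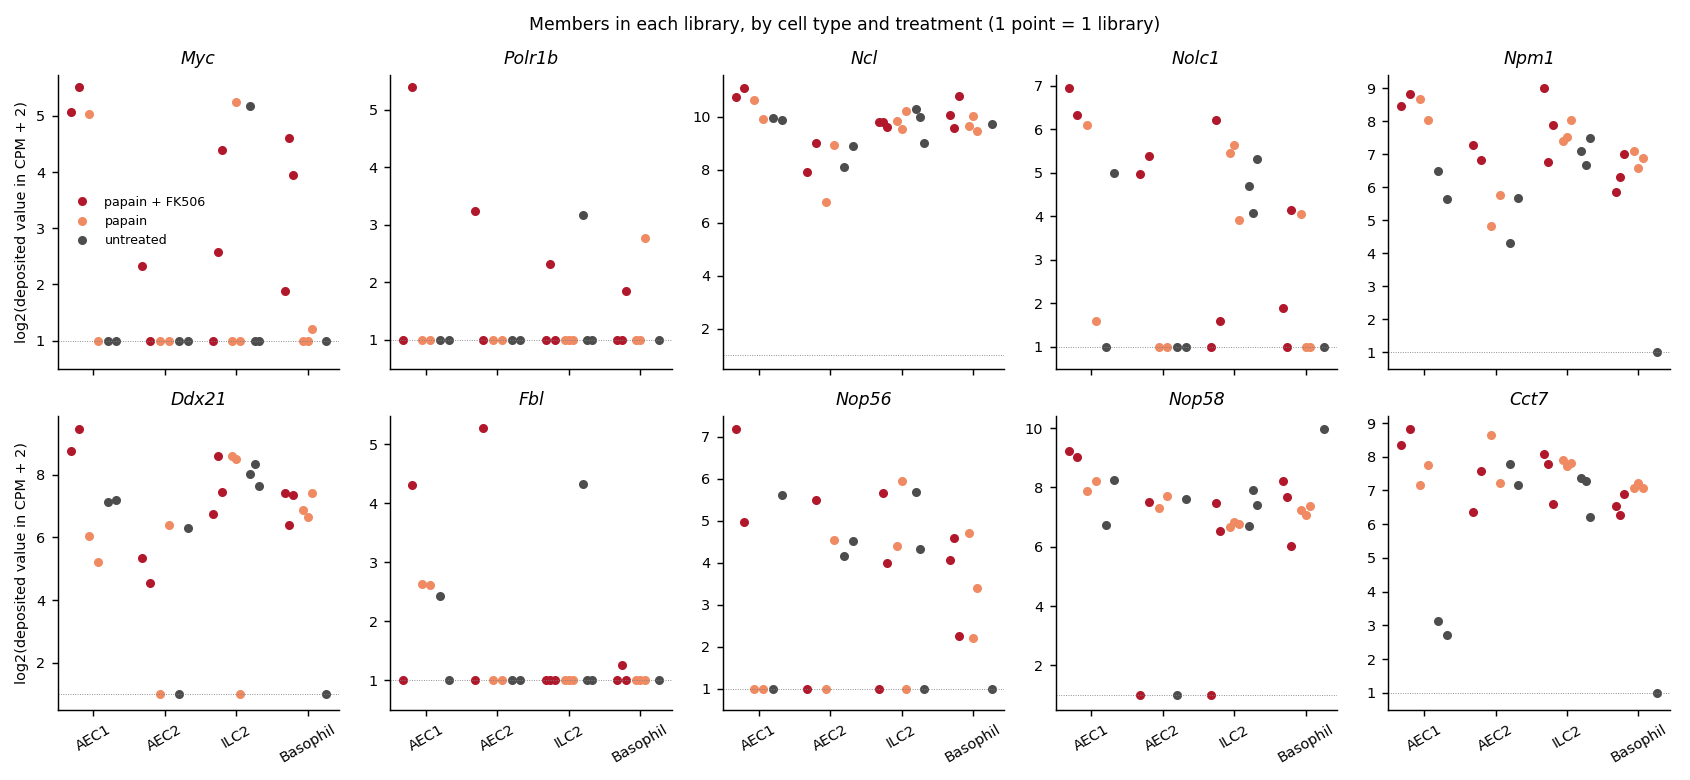
Deposited value of each of the 10 genes in each of the 28 libraries, as log2(CPM + 2), by cell type and, within it, papain + FK506, papain and untreated from left to right. Each point is 1 library and the dotted line marks a value of 0. Ncl was above 0 in all 28 libraries, while Polr1b was at 0 in 22 and Fbl in 21.

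Across the cell types the 10 genes were detected very unevenly. AEC, ILC2 and basophil values were scaled separately, and the ILC2 and basophil columns sum to well below the AEC columns, so levels set across them are given without a test. Ncl, which encodes nucleolin, a major nucleolar protein that binds ribosomal DNA and RNA, was the only one above 0 in every library, with 107.3 to 2188.1 CPM. Npm1, which encodes nucleophosmin, a nucleolar histone chaperone, was above 0 in 27 libraries, and so was Cct7. Nop58, a core protein of the box C/D ribonucleoproteins that methylate ribosomal RNA, was at 0 in 3 libraries, and Ddx21, a nucleolar RNA helicase, in 4. Nop56, the partner of Nop58, was at 0 in 9 and Nolc1, a scaffold of nucleolar ribonucleoproteins, in 10. Myc was at 0 in 16 libraries and reached 43.6 CPM at most. Polr1b, the second-largest subunit of RNA polymerase I, and Fbl, the methyltransferase of the box C/D particles, were at 0 in 22 and 21. In files like these a 0 can be a failed estimate: Gapdh, which nearly all cells use, was listed at 0 in 6 of 6 AEC1, 5 of 6 AEC2, 5 of 9 ILC2 and 3 of 7 basophil libraries. For that reason values at 0 are called listed at 0, and each library is given.

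Ncl ran from 937.3 to 2188.1 CPM in AEC1, from 107.3 to 520.3 CPM in AEC2, from 514.0 to 1254.0 CPM in ILC2 and from 716.3 to 1764.1 CPM in basophils. All AEC2 values lay below those of AEC1 and basophils, and the AEC2 range met the ILC2 range only at ILC2 untreated replicate 3, with 514.0 CPM. The other 3 ranges overlapped. Ddx21 ran from 34.9 to 700.7 CPM in AEC1, from 0 to 82.2 CPM in AEC2, from 0 to 388.0 CPM in ILC2 and from 0 to 170.2 CPM in basophils, and all 4 ranges overlapped. Cct7 ran from 4.6 to 451.8 CPM in AEC1, from 80.8 to 395.7 CPM in AEC2, from 73.0 to 268.0 CPM in ILC2 and from 0 to 146.1 CPM in basophils, again with overlap throughout. Summed over the 8 nucleolar genes, the values came to 1336 to 4016 CPM in AEC1, 291.5 to 953.7 CPM in AEC2, 1093 to 1846 CPM in ILC2 and 1147 to 2135 CPM in basophils. The AEC2 sums lay below all the others.

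**Figure D2:**
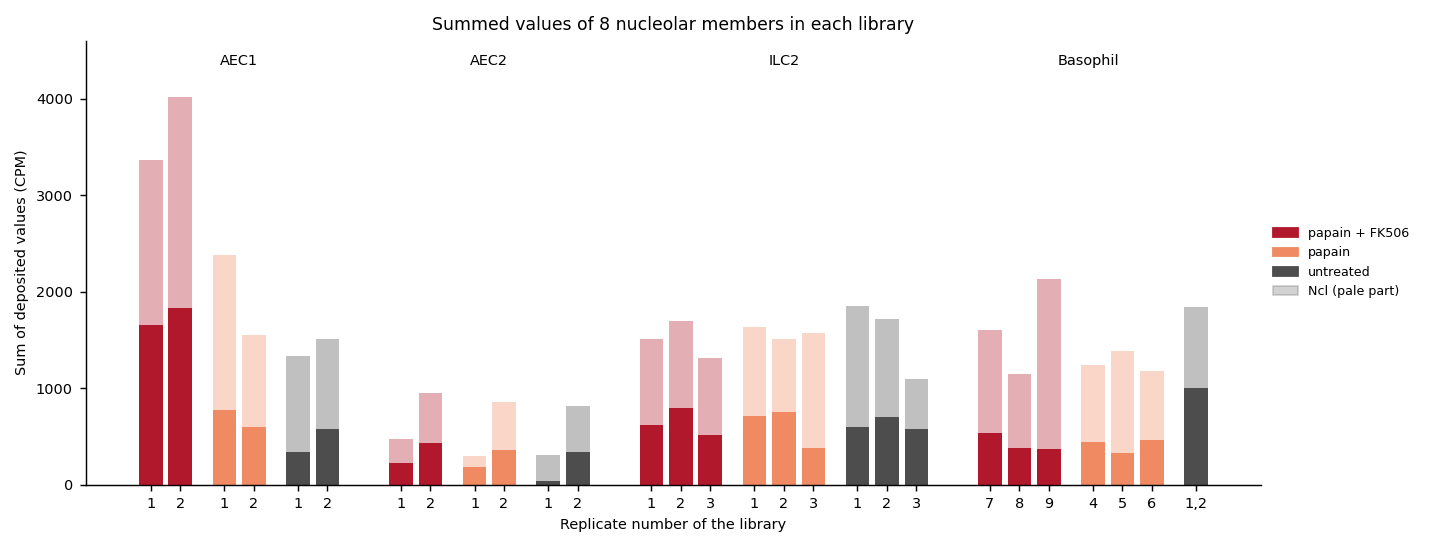
Sum of the deposited values (CPM) of the 8 nucleolar genes in each library, with the part from Ncl in the pale shade, by cell type and by papain + FK506, papain and untreated from left to right. The AEC1 papain + FK506 libraries had sums of 3365 and 4016 CPM, against 2377 and 1554 CPM after papain and 1336 and 1509 CPM untreated.

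In AEC1, papain with FK506 went with higher listed values of most of the 10 genes than papain alone. In 7 of the 10 both papain + FK506 libraries lay above both papain libraries, against 19.5% of the 8178 genes tested, and nothing is read from this count because the genes may have been picked on it. Ddx21 was at 432.9 and 700.7 CPM in papain + FK506 AEC1, against 64.6 and 34.9 CPM in papain AEC1. The groups were far apart, and the log2 difference was 3.33 (SE 0.60, 95% interval 1.95 to 4.71, n = 2 libraries each). These values rest on 371 and 594 reads after papain + FK506 and on 61 and 34 reads after papain. Nop58 was at 604.5 and 516.6 CPM after papain + FK506, against 231.9 and 297.3 CPM after papain, a log2 difference of 0.93 (SE 0.62). Nop56 was at 144.7 and 29.5 CPM after papain + FK506 and was listed at 0 in both papain libraries. Ncl was at 1708.4 and 2188.1 CPM after papain + FK506, against 1600.9 and 958.5 CPM after papain, a log2 difference of 0.49 (SE 0.33), so that its groups barely separated.

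Myc itself was at 31.5 and 43.6 CPM in papain + FK506 AEC1, which is 27 and 37 reads, against 30.7 and 0 CPM in papain AEC1. The first papain library thus nearly reached the lower papain + FK506 library, and only the second, listed at 0, set the groups apart. Without papain replicate 2 the log2 difference of Myc was 0.25, and without papain replicate 1 it was 4.18. Nolc1 was at 122.5 and 77.9 CPM after papain + FK506, against 66.7 and 1.0 CPM after papain. Npm1 overlapped, with 352.4 and 445.9 CPM after papain + FK506 against 408.7 and 258.3 CPM after papain. Polr1b was above 0 in 1 AEC1 library only, at 40.1 CPM in papain + FK506 replicate 2, and Fbl reached 17.7 CPM in the same library and 4.2 CPM at most in the papain libraries. Cct7 was at 320.9 and 451.8 CPM after papain + FK506, against 141.9 and 215.3 CPM after papain, a log2 difference of 0.97 (SE 0.78).

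Of the 10 genes, 8 passed the filter of 10 CPM in 2 AEC1 libraries, Myc and Nop56 only through the papain + FK506 libraries, which are the high group. In limma none of these 8 passed an adjusted p of 0.05 over all genes between papain + FK506 and papain, where 0% of genes did and 496 had an unadjusted p under 0.05. On the recovered reads, edgeR called 0 of the 10 as well, where it called 0% of 8120 genes, and DESeq2 called 1, Ddx21, where it called 1.05%, so that the call depends on the tool. In sorted bulk samples, fewer cells of a type and less RNA per cell cannot be told apart. The fibroblast and smooth muscle markers together were at 10350 to 15310 CPM in papain + FK506 AEC1, 6468 to 15910 CPM in papain AEC1 and 6225 to 8220 CPM in untreated AEC1. Mesothelial markers came to 1675 to 2118 CPM in papain + FK506, 2449 to 3676 CPM in papain and 4613 to 5630 CPM in untreated AEC1. The 11 AEC2 markers came to 2138 to 4827 CPM in papain + FK506, 1747 to 2563 CPM in papain and 6946 to 10370 CPM in untreated AEC1. Mki67, a marker of dividing cells, was at 54.8 and 37.7 CPM in papain + FK506, 61.4 and 18.5 CPM in papain and 14.6 and 0 CPM in untreated AEC1. The part of these other cells and of dividing cells in the differences was not tested.

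**Figure D3:**
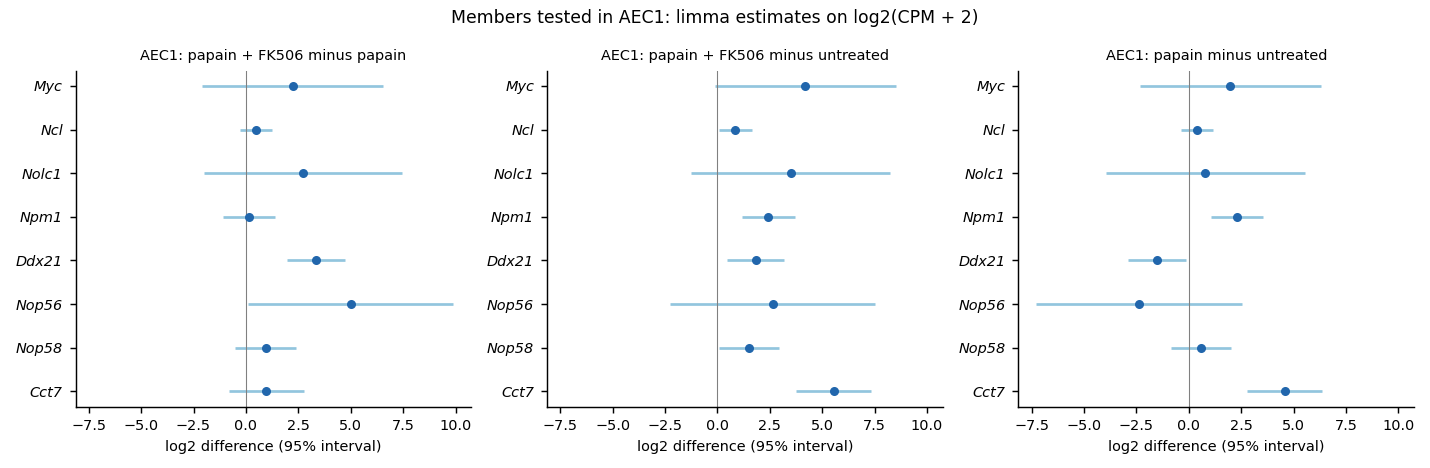
Log2 differences on the log2(CPM + 2) scale, with 95% intervals from limma, of the 8 genes tested in AEC1 in 3 comparisons of 2 libraries each. Cct7 stood at 5.54 between papain + FK506 and untreated and at 4.57 between papain and untreated, and Ddx21 was positive with FK506 but negative, at −1.51, between papain and untreated.

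Against untreated AEC1 the most separate gene was Cct7. It was at 320.9 and 451.8 CPM in papain + FK506 AEC1 and at 141.9 and 215.3 CPM in papain AEC1, against 6.7 and 4.6 CPM in untreated AEC1, where it rests on 6 and 4 reads. Its log2 difference was 5.54 (SE 0.78) between papain + FK506 and untreated, with a limma adjusted p of 0.119, and 4.57 (SE 0.78) between papain and untreated, with a limma adjusted p of 0.329. On recovered reads edgeR gave an adjusted p of 0.00462 between papain + FK506 and untreated and of 0.0168 between papain and untreated, so that Cct7 passed there and not in limma. It was the only one of the 10 that edgeR called, where edgeR called 0.382% of 8120 genes in the first comparison and 0.185% in the second. Its gene overlaps Pradc1, which is listed as a gene of its own, on the opposite strand. The strand setting of the counting is not known, so whether reads of the pair were kept apart is not known either. In AEC2, where Cct7 was at 395.7 and 146.2 CPM after papain and 218.0 and 140.8 CPM untreated, the groups overlapped. The interaction, AEC2 minus AEC1 of papain minus untreated, was −4.22 on the log2 scale (SE 1.17), with an unadjusted p of 0.00402 and a limma adjusted p of 0.972, and so did not pass, where 0% of genes passed. Without both libraries that share reads it was −3.92 (SE 1.19, limma adjusted p 0.371).

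Npm1 was at 352.4 and 445.9 CPM in papain + FK506 AEC1 and at 408.7 and 258.3 CPM in papain AEC1, against 88.7 and 48.3 CPM in untreated AEC1. Both treated groups lay above the untreated one, with log2 differences of 2.43 (SE 0.54, limma adjusted p 0.292) and 2.29 (SE 0.54, limma adjusted p 0.442). Ddx21 was at 138.0 and 143.8 CPM in untreated AEC1, below both papain + FK506 libraries and above both papain libraries. Its log2 difference was 1.82 (SE 0.60) between papain + FK506 and untreated, and −1.51 (SE 0.60, limma adjusted p 0.512) between papain and untreated. Myc was listed at 0 in both untreated AEC1 libraries, and Ncl was at 1001.1 and 937.3 CPM there, close to papain replicate 2.

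The 3 AEC1 comparisons share libraries, so their values stand side by side and are not independent. Between papain + FK506 and untreated 7 of the 10 genes had both libraries above, against 24.9% of all genes, and none passed in limma, where 2 of 8178 genes or 0.0245% did. Between papain and untreated Cct7 and Npm1 had both libraries above, against 19.2% of the 8178 genes tested, and 1 gene, Ddx21, had both below, against 14.2%. Fbl, which did not pass the filter, was at 4.2 and 4.1 CPM after papain, on 4 reads each, against 3.4 and 0 CPM untreated, on 3 and 0 reads. Nothing is read from so few reads. None passed in limma, where 0% of genes did. DESeq2 on recovered reads called 3 of the 10, Cct7, Npm1 and Ddx21, in each of these comparisons, where it called 5.71% of 8120 genes between papain + FK506 and untreated and 3.77% between papain and untreated.

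AEC2 had less Ncl than AEC1 in every library. Ncl was at 240.3 and 520.3 CPM after papain + FK506, 107.3 and 494.6 CPM after papain and 275.0 and 476.3 CPM untreated in AEC2, against 937.3 CPM or more in all 6 AEC1 libraries. The log2 difference, with treatment as a term, was −1.995 (SE 0.38) and the limma adjusted p was 0.000641, while the median of all genes was −0.45. The groups did not overlap, as for 4.9% of the 9841 genes tested in the same direction. Ddx21 was lower at −3.13 (SE 0.95, limma adjusted p 0.0282), with 0 to 82.2 CPM in AEC2 against 34.9 to 700.7 CPM in AEC1. Npm1 was lower by −1.82 (SE 0.60, limma adjusted p 0.0424), with 18.0 to 152.7 CPM in AEC2 against 48.3 to 445.9 CPM in AEC1. Both overlapped between the cell types. Nop58 had the log2 difference −2.79 (SE 1.01, limma adjusted p 0.067) and was listed at 0 in 1 of 2 papain + FK506 and 1 of 2 untreated AEC2 libraries.

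In all, 3 of 9 tested genes were called between AEC2 and AEC1, each lower in AEC2, where 13.4% of all genes were called in either direction and 8.69% were lower. On recovered reads edgeR called 1, Ncl, where it called 8.79% of 9737 genes, and DESeq2 called 3, Ncl, Npm1 and Nolc1, where it called 20.3%. With a replicate block 4 were called, where 14% of genes were. Cct7 was at 1.23 on the log2 scale (SE 0.76, limma adjusted p 0.287), and Nop56 was at 0.09 (SE 1.21), which became −0.01 without scaling. Without both AEC2 libraries that share reads 4 genes were called, where 11.5% of all genes were, with Ncl at −2.47, Npm1 at −2.10, Ddx21 at −4.83 and Nop58 at −4.11. With 1 library of the pair left out, 4 were called without the untreated one and 3 without the papain one, where 11.7% of all genes were called each time. Without the papain + FK506 libraries only Ncl passed, at −1.86 (SE 0.51, limma adjusted p 0.0425), where 7.94% of all genes did, while Ddx21 at −2.67 and Npm1 at −2.02 did not. Without these and both libraries that share reads, 2 passed, Ncl at −2.76 and Ddx21 at −5.43, where 6.27% of all genes did. Ncl passed under every alternative tried, Npm1 lost its call in 11 of 23 and Ddx21 in 12 of 23. Npm1 lost it (limma adjusted p 0.0501 to 0.0943) when AEC2 papain replicate 1 or 2, AEC2 papain + FK506 replicate 1 or 2, AEC1 papain replicate 1 or 2, AEC1 papain + FK506 replicate 2 or AEC1 untreated replicate 1 was left out. Ddx21 lost it (limma adjusted p 0.051 to 0.0795) without either papain + FK506 replicate of either cell type, without AEC2 papain or untreated replicate 1, and without either untreated AEC1 replicate. Markers of fibroblasts and smooth muscle came to 258.9 to 815.0 CPM in AEC2 against 6225 to 15910 CPM in AEC1, and their part in these differences was not tested.

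**Figure D4:**
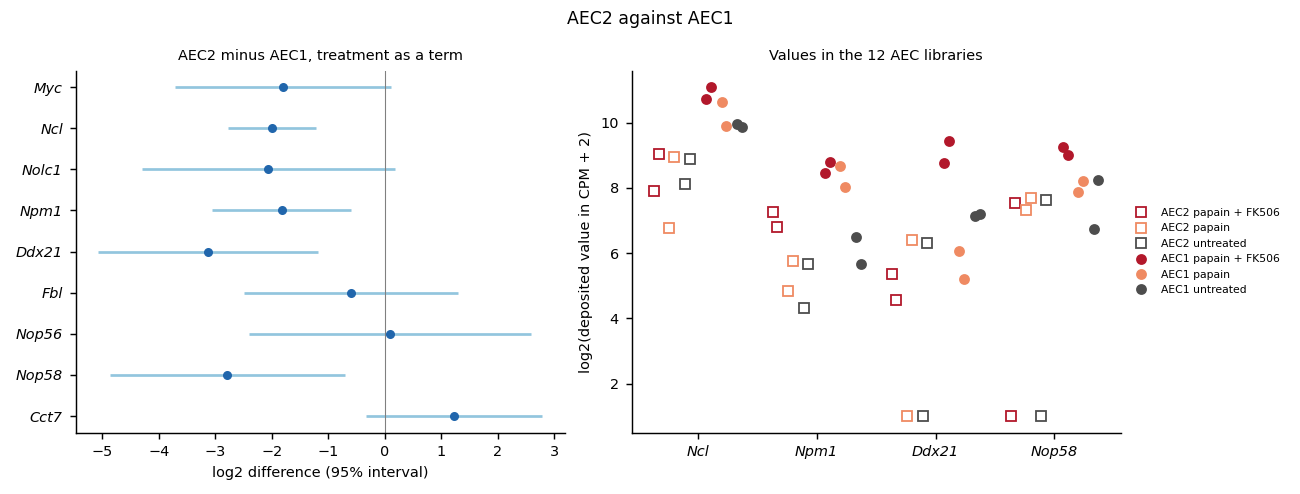
Left, log2 differences AEC2 minus AEC1 with 95% intervals from limma for the 9 genes tested. Right, log2(CPM + 2) of 4 of them in the 12 AEC libraries, with AEC2 as open squares left of AEC1 as filled circles, 1 symbol per library. The AEC2 values of Ncl all lie below its AEC1 values, and those of Ddx21, Npm1 and Nop58 overlap.

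Within AEC2 no gene was called in any of the 3 treatment comparisons, where 0% of the 6719 genes tested were called. Between papain and untreated the replicate 2 libraries are the pair that shares reads, which leaves 1 independent library on each side. Nolc1 was at 29.2 and 39.8 CPM in papain + FK506 AEC2 and was listed at 0 in both papain and both untreated libraries, so it passed the filter only through the papain + FK506 libraries. Its limma adjusted p was 0.909 in either comparison, and without both libraries that share reads 0.343 against papain and 0.372 against untreated. Npm1 was at 152.7 and 110.2 CPM after papain + FK506, against 26.4 and 51.8 CPM after papain and 18.0 and 49.2 CPM untreated. Its groups did not overlap, but against papain its limma adjusted p was 0.909, with 1.76 as the log2 difference (SE 1.23). Without both libraries that share reads the log2 difference of Npm1 was 2.22 (SE 0.80, limma adjusted p 0.347) against papain and 2.46 (SE 0.80, limma adjusted p 0.372) against untreated, and 0 genes of the 5029 tested were called in any of the 3 comparisons. Mki67 was at 49.4 and 49.7 CPM after papain + FK506, against 0 and 0 CPM after papain and 13 and 0 CPM untreated, and its part in these differences was not tested. Against papain, 16.7% of all genes had both papain + FK506 libraries above, and against untreated 18.9% did. Myc was above 0 in 1 AEC2 library only, at 3.0 CPM after papain + FK506. Cct7 was at 80.8 and 188.1 CPM after papain + FK506, against 395.7 and 146.2 CPM after papain. Its groups overlapped, and its log2 difference without both libraries that share reads was −1.66 (SE 0.75, limma adjusted p 0.418).

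In ILC2 none of the 8 genes tested was called by treatment, and Polr1b and Fbl did not pass the filter. Only Cct7, between papain and untreated, had groups that did not overlap. Ncl was at 887.0, 905.0 and 795.0 CPM after papain + FK506, 920.0, 755.0 and 1185.0 CPM after papain and 1254.0, 1021.0 and 514.0 CPM untreated. The 3 groups overlapped, and the log2 difference of papain + FK506 minus papain was −0.04 (SE 0.40, 95% interval −0.83 to 0.76). Ddx21 was at 105.0, 386.0 and 174.0 CPM after papain + FK506, 388.0, 356.0 and 0 CPM after papain and 257.0, 325.0 and 195.0 CPM untreated. The 0 in papain replicate 3 sets its log2 difference of −2.07 (SE 1.01) between papain and untreated, which had a limma adjusted p of 0.985. With replicates 1 and 2 only, which carry 1 code in the deposited tables, it was 0.16 (SE 0.59).

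Cct7 was at 237.0, 208.0 and 221.0 CPM in papain ILC2, against 163.0, 152.0 and 73.0 CPM in untreated ILC2. Its groups did not overlap, as for 4.31% of all genes in this direction, but its limma adjusted p was 1, with 0.58 as the log2 difference (SE 0.77). Nop58 was at 0, 175.0 and 90.0 CPM after papain + FK506, against 102.0, 239.0 and 169.0 CPM untreated, −2.41 on the log2 scale (SE 1.18, limma adjusted p 0.982). That value rests on the 0 in papain + FK506 replicate 1, without which it was −0.27 (SE 0.86, limma adjusted p 0.964). Npm1 was at 514.0, 106.0 and 235.0 CPM after papain + FK506, against 167.0, 180.0 and 262.0 CPM after papain. Myc was above 0 in 4 of 9 ILC2 libraries, at 4.0 and 19.0 CPM after papain + FK506, 36.0 CPM after papain and 34.0 CPM untreated. It passed the filter only with a papain + FK506 library counted. None of the 8 genes tested was called in any of the 3 comparisons, where 0% of the 6271 genes were called between papain and untreated and between papain + FK506 and untreated, and 0.0159% between papain + FK506 and papain. Macrophage, monocyte and dendritic markers reached 15020 CPM in papain + FK506 replicate 3, while no remaining library labelled ILC2 exceeded 1775 CPM. The lowest sum was 304.0 CPM, in papain + FK506 replicate 1. The part of these markers was not tested.

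In the libraries labelled basophil, Cct7 was at 91.2, 76.0 and 116.8 CPM after papain + FK506, against 133.2, 146.1 and 133.0 CPM after papain. All papain + FK506 values lay below all papain values, as for 5.62% of the 5853 genes tested, and the log2 difference was −0.59 (SE 0.67, limma adjusted p 0.882). Myc was at 1.7, 22.3 and 13.4 CPM after papain + FK506, against 0, 0 and 0.3 CPM after papain. The groups of Myc did not overlap, but it had 10 CPM in only 2 libraries and was not tested. Of the 5853 genes tested, 5.77% had no overlap in this direction. Of the marker lists of other cells, those of fibroblasts and smooth muscle and of AEC2 separated the same groups. Fibroblast and smooth muscle markers came to 2368 to 3492 CPM after papain + FK506, against 261.1 to 1057 CPM after papain, and the 11 AEC2 markers came to 3208 to 11930 CPM, against 1419 to 2707 CPM after papain. Csf1r, a defining macrophage and monocyte gene, was at 55.9, 619.2 and 803.6 CPM after papain + FK506, against 1397.3, 1505.0 and 1517.5 CPM after papain. The whole macrophage, monocyte and dendritic list overlapped, at 2785 to 15240 CPM after papain + FK506 against 11520 to 20740 CPM after papain. Neutrophil, endothelial, airway, mesothelial, AEC1 and ILC2 markers overlapped between these groups as well. The part of these cells in the values of Cct7 and Myc was not tested. Ncl was at 1067.4, 762.8 and 1764.1 CPM after papain + FK506, against 803.5, 1054.1 and 716.3 CPM after papain, with a log2 difference of 0.37 (SE 0.39). Npm1, Ddx21, Nop56 and Nop58 overlapped as well. None of the 6 genes tested was called, where 0% of all genes were called. The single untreated library had only 2002 genes above 0, and 2 of the 10 genes among them, Ncl at 840.1 CPM and Nop58 at 1003.6 CPM. Nop58 reached 295.0 CPM at most in the other 6 basophil libraries. With 1 untreated library no test was made against it.

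The wider set was taken as 9 lists with 213 genes, which had been put together with earlier results of these libraries known. Besides ribosome biogenesis, the lists cover MYC partners and antagonists, other MYC target genes, chaperonin subunits and prefoldin. Counts over all 213 genes therefore do not describe ribosome biogenesis alone. In AEC1, 178 of the 213 passed the filter and none was called in any of the 3 comparisons. Between papain + FK506 and untreated 138 of the 178 had a positive log2 difference, with a median of 1.20 against 0.30 for all genes. Between papain and untreated 117 of 178 were positive, with a median of 0.90 against 0.16. Between papain + FK506 and papain 111 of 178 were positive, with a median of 0.38 against 0.08. Over all 8178 genes tested, 56.9%, 55.2% and 52% were positive in these 3 comparisons, in the same order. The counts of positive genes by list below stand against these shares. The genes named here for each list had the smallest adjusted p of it in a comparison, and their limma adjusted p in AEC1 ran from 0.201 upwards, so all are values only.

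The small nucleolar ribonucleoprotein and modification list had medians of 2.36 between papain + FK506 and untreated, 2.82 between papain and untreated and 0.46 between papain + FK506 and papain. Nop10, a core protein of the box H/ACA particles, was at 151.7 and 121.5 CPM in papain + FK506 AEC1 and 137.6 and 99.4 CPM in papain AEC1, against 5.6 and 25.3 CPM in untreated AEC1. Its limma adjusted p was 0.314 between papain + FK506 and untreated. Nhp2, another core protein of these particles, was at 105 and 72 CPM in papain + FK506 AEC1 and 92.1 and 32.8 CPM in papain AEC1, against 6.7 and 5.8 CPM in untreated AEC1. Both genes were thus low in the untreated libraries. A pair of assembly factors of the same particles lay on opposite sides between the treated groups. Shq1 was listed at 0 in both papain + FK506 libraries, against 23.3 and 16.4 CPM after papain and 0 in both untreated libraries. Naf1 was at 52.5 and 13 CPM after papain + FK506, against 0 in both papain libraries and 0 and 26.5 CPM untreated.

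Of the RNA polymerase I list, 10 of 18 tested genes were positive between papain + FK506 and papain, with a median of 0.29. Tcof1, a nucleolar cofactor of RNA polymerase I, was ordered across the groups as Ddx21 was. It was at 262.6 and 317.3 CPM in papain + FK506 AEC1 and at 54.0 and 0 CPM in papain AEC1, against 142.5 and 78.2 CPM in untreated AEC1. Polr1a, the largest subunit of the enzyme, lay the other way, at 21 and 0 CPM after papain + FK506, against 42.4 and 28.7 CPM after papain and 35.9 and 23 CPM untreated. Ttf1, which ends transcription by this polymerase, was at 18.7 and 83.7 CPM after papain + FK506 and 63.5 and 51.3 CPM after papain, against 0 and 2.3 CPM untreated. Polr2f, a subunit shared by the RNA polymerases, was at 154 and 162.8 CPM after papain + FK506 and 54 and 113.8 CPM after papain, against 18 and 35.7 CPM untreated.

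The large subunit assembly list had 28 of 41 tested genes positive between papain + FK506 and papain, with a median of 0.94. Mak16 was at 88.7 and 121.5 CPM in papain + FK506 AEC1 and was listed at 0 in both papain and both untreated libraries. Gnl3l, a nucleolar GTPase, was at 110.9 and 16.5 CPM after papain + FK506, against 0 in both papain libraries and 88.7 and 28.8 CPM untreated. Nop16 and Pes1 were listed at 0 in both untreated libraries. Nop16 was at 93.4 and 63.7 CPM after papain + FK506 and 45.5 and 52.3 CPM after papain, and Pes1 was at 2.3 and 20.1 CPM after papain + FK506 and 85.8 and 39 CPM after papain. Of the small subunit processome list, 27 of 42 were positive, with a median of 0.32. Rrp9, a protein of the U3 particle, was at 14 and 27.1 CPM after papain + FK506 and at 0 in the other 4 libraries, while Rrp7a was at 0 in both papain + FK506 libraries, against 72 and 17.4 CPM after papain and 0 and 4.6 CPM untreated. Rcl1 was at 292.9 and 320.8 CPM after papain + FK506 and 222.4 and 222.5 CPM after papain, against 99.9 and 61 CPM untreated. Heatr1 was at 8.2 and 53.1 CPM after papain + FK506 and 31.8 and 64.6 CPM after papain, and at 0 in both untreated libraries.

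Among the other nucleolar genes 8 of 19 were positive between papain + FK506 and papain, with a median of −0.37. Pop1, of the enzymes RNase P and RNase MRP, was at 0 in both papain + FK506 and both untreated libraries, against 14.8 and 61.5 CPM after papain, and Pop4, of the same enzymes, was at 39.7 and 28.3 CPM after papain + FK506 and 69.9 and 15.4 CPM after papain, against 0 in both untreated libraries. Of the exosome, which trims RNA ends, Exosc1 was at 42 and 23.6 CPM after papain + FK506, against 0 in both papain libraries and 0 and 24.2 CPM untreated. Exosc8 was at 21 and 89.6 CPM after papain + FK506 and 68.8 and 101.5 CPM after papain, against 0 in both untreated libraries.

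The list of MYC partners and antagonists had 7 tested genes and a median of −0.33 between papain + FK506 and papain, of which 2 were positive. Mnt, a MAX partner that represses transcription, was at 25.7 and 30.7 CPM after papain + FK506, against 26.5 and 0 CPM after papain and 11.2 and 27.6 CPM untreated. Mxd4, another such partner, was at 35 and 0 CPM after papain + FK506, against 19.1 and 19.5 CPM after papain and 1.1 and 0 CPM untreated. Max itself was at 24.5 and 56.6 CPM after papain + FK506 and 34.9 and 99.4 CPM after papain, against 138 and 36.8 CPM untreated. Mga, a further MAX partner, was at 107.4 and 166.3 CPM after papain + FK506 and 142.9 and 119.9 CPM after papain, against 9 and 250.7 CPM untreated. These 4 genes overlapped between at least one pair of groups. The list of other MYC target genes had 20 of 26 positive between papain + FK506 and papain, with a median of 0.74, and 24 of 26 between papain + FK506 and untreated, with a median of 2.39. Hspe1, a mitochondrial chaperonin, was at 703.6 and 1075.7 CPM after papain + FK506 and 369.5 and 362.9 CPM after papain, against 119 and 134.6 CPM untreated, so that its 3 groups did not overlap. Nme2, a nucleoside diphosphate kinase, was ordered in the same way, at 900.9 and 796.2 CPM after papain + FK506 and 426.7 and 477.7 CPM after papain, against 159.4 and 235.8 CPM untreated. Pa2g4 was at 458.6 and 348 CPM after papain + FK506, against 93.2 and 131.2 CPM after papain and 38.2 and 79.4 CPM untreated. Ran, a GTPase of nuclear transport, was at 453.9 and 279.6 CPM after papain + FK506 and 208.6 and 350.6 CPM after papain, against 70.7 and 29.9 CPM untreated, and Set was at 214.7 and 243 CPM after papain + FK506 and 230.8 and 111.7 CPM after papain, against 32.5 and 0 CPM untreated.

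The other 5 chaperonin subunits tested had a median of 0.28 between papain + FK506 and untreated, against 5.54 for Cct7. Cct4 and Cct5 had log2 differences of 2.19 (SE 1.47) and 1.20 (SE 1.05) there. Cct8 was at 190.2 and 198.2 CPM after papain + FK506, against 113.3 and 34.9 CPM after papain and 190.8 and 156.4 CPM untreated. Tcp1 was at 28 and 15.3 CPM after papain + FK506, against 74.1 and 76.9 CPM after papain and 12.3 and 26.5 CPM untreated. The prefoldin list, whose products pass unfolded proteins to the chaperonin, had medians of −0.19 between papain + FK506 and untreated, 0.06 between papain and untreated and 0.07 between papain + FK506 and papain. The log2 difference of Pfdn1 was 0.98 (SE 0.71) between papain + FK506 and untreated and 0.91 (SE 0.71) between papain and untreated. That of Pfdn5 was −1.06 (SE 0.90) between papain + FK506 and untreated and −0.53 (SE 0.90) between papain + FK506 and papain. That of Pfdn6 was −2.06 (SE 2.31) between papain + FK506 and papain, and that of Pdcl3 −2.52 (SE 2.03) between papain and untreated.

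Between AEC2 and AEC1, 195 of the 213 genes were tested, 20 or 10.3% were lower in AEC2, close to the 8.69% of all genes, and 1 was higher, while the median was −0.83 against −0.45 for all genes. Without both libraries that share reads 13 of 191, or 6.81%, were lower, against 8.02% of all genes, and the median was −1.12 against −0.81. Nothing is therefore read from these counts about the lists. The large subunit assembly list had 7 of 45 tested genes lower, or 15.6%, and a median of −1.62, and without both libraries 6 of 44. It included Rrs1, a factor that brings 5S RNA into the large subunit, at −4.34 (SE 1.00), Las1l, of the complex that processes the spacer next to the large subunit RNA, at −4.16 (SE 0.96), and the helicase gene Ddx18 at −4.11 (SE 1.02). Las1l was at 0 to 7.4 CPM in the AEC2 libraries against 33.9 to 127.7 CPM in AEC1. The small subunit processome list had 6 of 47 tested genes lower, or 12.8%, but 2 of 47 without both libraries that share reads. Among the 6 were the helicase gene Ddx10 at −4.09 (SE 0.93) and Pno1, which binds the small subunit precursor, at −4.01 (SE 0.98). Utp23, of the same list, was listed at 0 in all 6 AEC2 libraries and reached 73.1 CPM in AEC1. Pno1 was at 0 to 3.0 CPM in AEC2 against 18.5 to 61.8 CPM in AEC1. Dkc1, the pseudouridine synthase of the box H/ACA particles, was lower at −3.94 (SE 0.97), Mga at −4.32 (SE 1.04), Tcof1 at −4.21 (SE 1.11), the nucleolar gene Nom1 at −3.32 (SE 0.96) and Tomm70a, a mitochondrial import receptor, at −3.55 (SE 1.11). Ftsj3, an RNA methyltransferase, and Nol8 were lower too, listed at 0 in all 6 AEC2 libraries, with up to 161 CPM and 62.9 CPM in AEC1. Without both libraries that share reads, the ribonucleoprotein and modification list had 1 of 14 lower, against 2 of 16 with them. The other nucleolar list then had 1 of 21 lower, against 2 of 21. The lists of MYC partners and of RNA polymerase I each kept 1. Of the 27 other MYC target genes 0 were lower, so Tomm70a lost its call. No chaperonin or prefoldin gene of the lists passed with all libraries in the fit, with Cct8 at −1.91 (SE 0.74), Cct5 at −2.48 (SE 1.00), Pdcl3 at −1.85 (SE 1.13) and Pfdn6 at 1.504 (SE 0.96). Without both libraries that share reads 1 of 6 chaperonin genes was lower, where 8.02% of all genes were, and 0 of 7 prefoldin genes. The gene that was higher was Tfrc, the transferrin receptor, with 108.1 to 467.5 CPM in AEC2 against 0 to 12.7 CPM in AEC1, and it stands in the list of other MYC target genes.

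Over the 28 libraries, the genes whose values were most like those of Myc among 6047 ranked genes were Pbdc1 (Pearson r 0.69), Ddx55 (0.654) and Ccdc127 (0.653). Those most like Ncl were Vim (0.799), Macf1 (0.799) and Ssb (0.794). For Ddx21, added after its values were seen, they were Safb (0.924), Ddx3x (0.877) and Kdm5a (0.83). Among the members Myc was closest to Nolc1 (0.465) and Ncl to Ddx21 (0.545). These coefficients describe libraries of 4 cell types that share depth and scaling within a type, and they carry no test.

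On the GENCODE annotation of GRCm38 Myc lies on chromosome 15 at 61985391 to 61990374 and Ddx21 on chromosome 10 at 62580251 to 62602281. Ncl lies on chromosome 1 at 86344719 to 86359400 and holds 3 small nucleolar RNA genes, Nop56 on chromosome 2 at 130274430 to 130279313 holds 5 and overlaps Idh3b on the opposite strand, and Nop58 on chromosome 1 at 59684971 to 59719044 holds 4. Cct7 lies on chromosome 6 at 85451514 to 85468475, Npm1 on chromosome 11 at 33152287 to 33163206, Nolc1 on chromosome 19 at 46075863 to 46085530, Polr1b on chromosome 2 at 129100995 to 129126594 and Fbl on chromosome 7 at 28169710 to 28179269. Of the small nucleolar RNA genes inside these 3 host genes, Snora75, Snord82, Snord110, Snord57, Snord70 and Snord11 are listed as genes of their own in some or all cell types. Whether any reads of the small nucleolar RNA genes were counted to the host genes was not tested.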

How the data were processed

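Lung cells were sorted, RNA was extracted and QuantSeq libraries (Lexogen), a method that sequences transcript 3′ ends, were prepared from 10 ng RNA each, per the labels' protocols. STAR 2.7.0c, featureCounts 1.6.0 and the builds mm10 and GRCm38.p6 are named in the submitters' processing notes. The authors deposited CPM values per gene. In 11 AEC libraries whole reads were recovered from the CPM steps, with 100.0% of low values within 0.1 read of a whole number. In 10 libraries, all ILC2 and AEC2 untreated replicate 1, the deposited values are CPM rounded to whole numbers and were treated as a score on the CPM scale.

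Values were divided by TMM factors, 2 CPM was added and log2 taken. Genes with 10 CPM in 2 (AEC) or 3 (ILC2, basophil) libraries were tested in limma 3.58.1 with Benjamini-Hochberg adjustment over all genes, called at an adjusted p of 0.05, in 13 comparisons, with the file code as a term in ILC2 and treatment as a term between AEC2 and AEC1. The 10 genes, and the lists, were chosen with earlier results of these data known. All 10 were named, plus up to 3 passing genes of a list with the largest change or else up to 2 with the smallest adjusted p, shown for the AEC1 and the AEC2 against AEC1 comparisons. No list gene passed in the others. The alternatives were edgeR 4.0.16 and DESeq2 1.42.0 on the recovered reads, other scalings, pseudocounts of 1 and 5, no filter, a replicate block, each library left out and, added after the data were seen, AEC2 without both libraries that share reads, lists included, and AEC2 against AEC1 without the papain + FK506 libraries. The limma functions were run on simulated data whose spread was set and not estimated from these libraries, so this checks the code only. Read totals give counting error only.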

Additional observations from a re-analysis of the deposited data

Results flagged for a closer look

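Cct7 lay on opposite sides between papain + FK506 and papain in 2 cell types. In AEC1 both papain + FK506 libraries lay above both papain libraries, with a log2 difference of 0.965, and in basophils all 3 papain + FK506 libraries lay below all 3 papain libraries, with a log2 difference of -0.591. Both 95% intervals spanned 0, at -0.83 to 2.76 in AEC1 and -2.03 to 0.84 in basophils. Groups lay apart in the same direction in 19.5% of the 8178 genes tested in AEC1 and in 5.62% of the 5853 tested in basophils. Fibroblast and smooth muscle markers and AEC2 markers also separated the basophil groups, while the other marker lists overlapped, and their part was not tested. The AEC1 and basophil values were scaled separately, and the difference between the AEC1 and basophil effects was not tested.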

How the results depend on the processing

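The counts of called genes were 0 in the AEC1 comparisons under every limma alternative, while edgeR and DESeq2 on recovered reads called 1 and 3 of the 10 between papain and untreated and 1 and 3 between papain + FK506 and untreated, and DESeq2 called 1 between papain + FK506 and papain. Over all 8120 genes DESeq2 called 306, 464 and 85 in these comparisons and edgeR 15, 31 and 0, against 0, 2 and 0 of 8178 in limma. Between AEC2 and AEC1, where limma called 3, the count was 1 with edgeR, 1 without the papain + FK506 libraries and 1 to 4 with 1 library left out. No call reversed its direction.

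The replicate numbers were not taken as pairing the samples, since not every same-numbered pair correlated above 0.1: their deviations correlated at -0.02 to 0.02 in AEC1, -0.01 to 0.45 in AEC2, where 2 libraries share reads, and 0.05 to 0.23 in ILC2, against -0.19 to 0.11 for differently numbered ILC2 pairs. The ILC2 replicate 3 libraries, which have their own file code, correlated at 0.15, 0.19 and 0.23. With a replicate block, 4 genes were called between AEC2 and AEC1, Nop58 being added, and no other call of the 10 changed. Without scaling, the median of all genes between papain and untreated ILC2 was -0.05 against -0.22 with it, and 6 instead of 3 of 8 genes were positive. Myc had at most 37 reads in an AEC library, which limits what can be seen for it.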
